A study of Mus musculus with 4 samples.

Results

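Expression of 9 interferon-inducible genes was compared between mouse fibroblasts with and without transfected Erbb2: the membrane protein genes Ifitm1, Ifitm2, Ifitm3 and Bst2, the MHC class I gene H2-K1, the immunoproteasome gene Psmb9, and Ifit3, Ifi35 and Rsad2. They were read as the probes that the platform annotation names for these 9 symbols, 10 probes in all among 20355 rows, with the probes of a gene averaged on each array. All 9 genes had a value on all 4 arrays, as had 6327 genes in the whole table. The genes were picked with their ratios in these data known, so their own values are given as a description, with no test.

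The tested sample was an NIH3T3 cell line transfected with Erbb2, a receptor tyrosine kinase gene, and labelled as overexpressing it. The other sample was the untransfected NIH3T3 line, an established mouse embryonic fibroblast line, labelled as having normal Erbb2 expression. Both RNAs were hybridised together on each of 4 two-colour cDNA arrays, with the transfected line in Cy5 on arrays 1 and 2 and in Cy3 on arrays 3 and 4. The arrays are technical replicates of 1 RNA sample per line, so every SD and p-value below covers the spread between arrays and not that between cultures, clones or transfections. The sources used here do not give the vector, the promoter of the transgene or whether the line is 1 clone.

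Interferons bind cell surface receptors that activate JAK kinases, STAT factors and interferon regulatory factors, and these switch on a large set of antiviral and antigen presentation genes. IFITM proteins sit in endosomal and plasma membranes and hinder the fusion of enveloped viruses with the cell. MHC class I molecules such as H2-K1 carry peptides to the cell surface for T cells, and fibroblasts express them without interferon at a level that interferon raises.

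The promoters of genes in this group often carry an interferon-stimulated response element, so the promoters of 5 of the 9 genes are shown for comparison with their ratios. They are RefSeq sequences of the mouse build GRCm38.p6, each with 250 bases before and 50 bases after a listed start, written 5′ to 3′ on the strand of the gene. Capitals mark the 10-letter motif GAAANNGAAA or the 9-letter motif GAANNGAAA on either strand (TTTCNNTTTC or TTTCNNTTC when read on the other strand). Ifitm3 and H2-K1 had the lowest ratios of the 9 genes, Ifitm2 is a close relative of Ifitm3, and Ifit3 and Bst2 had means nearer to 0 than any Ifitm gene.
Ifitm3, chr7:141010695-141010994, minus strand: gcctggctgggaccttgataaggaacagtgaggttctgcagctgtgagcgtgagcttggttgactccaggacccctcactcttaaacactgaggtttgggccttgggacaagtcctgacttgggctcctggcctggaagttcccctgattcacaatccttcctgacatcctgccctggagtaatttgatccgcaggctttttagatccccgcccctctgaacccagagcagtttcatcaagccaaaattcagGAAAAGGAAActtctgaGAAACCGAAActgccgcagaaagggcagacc
Ifitm2, chr7:140955912-140956211, minus strand: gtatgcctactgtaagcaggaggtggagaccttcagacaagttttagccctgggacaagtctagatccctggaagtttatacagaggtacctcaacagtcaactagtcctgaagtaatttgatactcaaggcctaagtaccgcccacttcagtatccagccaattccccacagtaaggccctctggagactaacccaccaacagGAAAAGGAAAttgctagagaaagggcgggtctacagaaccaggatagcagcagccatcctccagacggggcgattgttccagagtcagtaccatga
H2-K1, chr17:34000298-34000597, minus strand: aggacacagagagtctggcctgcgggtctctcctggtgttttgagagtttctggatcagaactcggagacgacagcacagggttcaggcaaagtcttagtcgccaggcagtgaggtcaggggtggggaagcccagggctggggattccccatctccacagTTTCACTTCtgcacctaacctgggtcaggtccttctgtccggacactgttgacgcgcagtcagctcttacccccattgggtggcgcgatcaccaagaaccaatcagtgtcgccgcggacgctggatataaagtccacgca
Ifit3, chr19:34583279-34583578, plus strand: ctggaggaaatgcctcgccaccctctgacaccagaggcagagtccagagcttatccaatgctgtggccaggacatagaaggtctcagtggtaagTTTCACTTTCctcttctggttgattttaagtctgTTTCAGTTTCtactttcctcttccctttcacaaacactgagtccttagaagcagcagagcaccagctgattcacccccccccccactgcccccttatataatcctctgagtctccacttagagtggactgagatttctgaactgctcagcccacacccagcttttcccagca
Bst2, chr8:71537423-71537722, minus strand: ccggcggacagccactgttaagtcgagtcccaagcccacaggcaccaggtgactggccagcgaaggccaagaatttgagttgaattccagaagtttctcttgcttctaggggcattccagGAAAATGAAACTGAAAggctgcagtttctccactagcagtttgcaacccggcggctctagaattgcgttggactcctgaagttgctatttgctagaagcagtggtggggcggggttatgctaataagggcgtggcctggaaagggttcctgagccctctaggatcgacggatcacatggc
Of all 32851 promoters of this length in the table, 3.44% held the 10-letter motif and 7.52% the 9-letter motif. Every one of the 9 genes matched the promoter table by symbol. The 10-letter motif stood in the promoters of 5 of them, Ifitm2, Ifitm3, Ifit3, Bst2 and Rsad2, and the 9-letter motif in those of H2-K1 and Ifi35. Ifitm3 had both of its copies in the 50 bases after the start, Ifit3 had its copies 156 and 122 bases before the start, and those of Bst2 overlapped each other. H2-K1 had its single copy 90 bases before the listed start shown here. Neither motif occurred in the listed window of Ifitm1 or of Psmb9. The palindrome TTCNNNGAA, a form of the site bound by STAT dimers, was held by 8.3% of all promoters and by those of Ifitm3, Bst2 and Ifi35. These genes were chosen as interferon-induced, so the matches only describe them. Ifitm3, Ifit3 and Bst2, whose mean log2 ratios given below were -1.65, -0.43 and -0.04, each carried 2 copies of the 10-letter motif, while Ifitm1 (-1.17) had none in this window.

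Values below are log2 ratios as deposited by the authors. Their direction is not stated. Values beyond 15 in size, which look like a cap, were all positive with the transfected line in Cy5 and all negative with it in Cy3, so the sign of one dye orientation appears to have been turned. The likely direction is the transfected over the untransfected line, so that a value below 0 means a lower level in the transfected line, and all signs would turn together if that reading were wrong. In the lower part of the table, the rows of arrays 2 to 4 appear to slip against the probe names. This slip and its size are inferred from the values and stated nowhere. Probe rows between 8000 and 18000 were therefore read 3 rows higher on these arrays, and those of the last stretch 4 rows higher. Ifitm1, H2-K1, Ifit3, Bst2, Psmb9 and Rsad2 lie in the first 6000 rows, which need no such move. Ifitm3, Ifi35 and Ifitm2 rest on it for arrays 2 to 4. Other genes described below do too, among them Ifitm10, Calr, H2-M3, B2m, Tap1, Psme1, Psmb8, Psmb10, Mx2, Oas1a, Uba7, Stat2, Ptpn1 and Psmc5. For Ifnar2, Tyk2, Irf8, Fn1 and Col1a2, some probes rest on the move and others do not. Agreement between arrays was weak across the 6327 genes, with Pearson's r between 0.123 and 0.202 over the pairs of arrays (genes are not independent replicates). Two-colour ratios give no level of a gene in either line, so the fibroblast identity could not be checked from the presence of markers. No probe was named for Erbb2.

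All 3 Ifitm genes and H2-K1 had ratios below 0 on every array. Ifitm3, which restricts influenza and other viruses in endosomes, had log2 ratios of -1.37, -1.60, -2.03 and -1.58 on arrays 1 to 4. The value on array 1, which needs no move of rows, was the one nearest to 0, and the 4 values spanned 0.66 log2 units. The mean was -1.65 ± 0.28 (SD, n = 4 arrays), a 3.13-fold lower level in the transfected line, and 2.17% of all genes tested had a lower mean.

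Ifitm1, a relative found at the cell surface, had log2 ratios of -1.10, -1.16, -1.37 and -1.07. They lay closer together than those of any other of the 9 genes, within 0.30 log2 units. The mean of -1.17 ± 0.14 (SD, n = 4 arrays) corresponds to a 2.25-fold lower level. Ifitm2, the third gene of the family, was nearer to 0, with log2 ratios of -0.37, -0.91, -0.46 and -0.90 and a mean of -0.66 ± 0.29, a 1.58-fold lower level. Its 2 lower values came from arrays of opposite dye orientation, and 16.2% of all genes had a lower mean.

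The Ifitm genes kept 1 order on every array. Ifitm3 was lower than Ifitm1 on 4 of 4 arrays, by 0.47 ± 0.16 log2 units on average, and Ifitm1 was lower than Ifitm2 on 4 of 4 arrays, by 0.51 ± 0.36. Both steps exceeded their SD over arrays. These genes are close paralogs, and how far the cDNA probe of one also binds transcripts of another was not tested, so the 3 ratios may not be separate measurements.

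H2-K1, which encodes the heavy chain of a classical MHC class I molecule, had log2 ratios of -2.10 and -2.30 with the transfected line in Cy5 and of -1.41 and -0.87 with it in Cy3. The orientations did not overlap, with means of -2.20 in the first and -1.14 in the second, but both lay below 0. How many of all genes were separated in this way was not counted, so the separation only describes the 4 values. The mean over all arrays was -1.67 ± 0.66 (SD, n = 4 arrays), a 3.18-fold lower level. Its distance of 0.03 from the mean of Ifitm3 was far smaller than the SD of their difference (0.80), and Ifitm3 was the lower of the 2 on arrays 3 and 4. Class I heavy chain genes are similar in sequence, and binding of other class I transcripts to this probe was not tested.

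**Figure D1:**
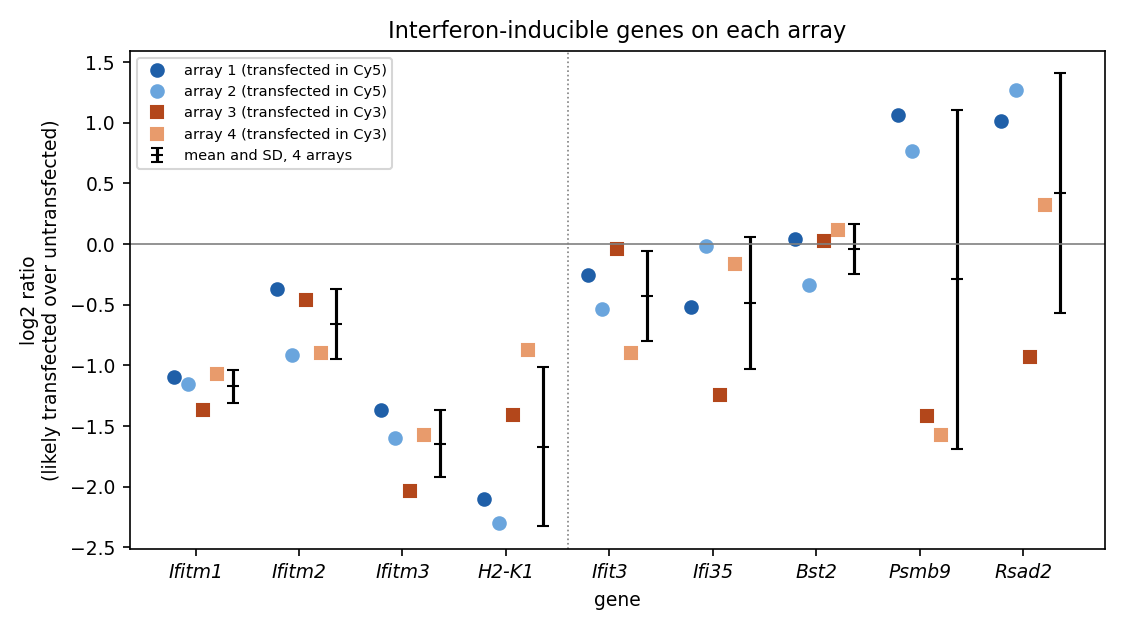
Log2 ratio of each of the 9 genes on each of the 4 arrays (y axis, likely transfected over untransfected). Circles mark arrays with the transfected line in Cy5, squares arrays with it in Cy3, and the bar beside each gene its mean and SD over 4 arrays. Ifitm1, Ifitm2, Ifitm3 and H2-K1, left of the dotted line, lie below 0 on every array, whereas Psmb9 lies above 0 in one dye orientation (1.06 and 0.77) and below 0 in the other (-1.42 and -1.58).

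The other 5 genes had means nearer to 0 or differed between arrays. Ifit3, a tetratricopeptide protein that acts with other IFIT proteins against viral RNA, had log2 ratios of -0.25, -0.53, -0.04 and -0.90. All were below 0, with a mean of -0.43 ± 0.37, and 26.6% of all genes had a lower mean. Ifi35, an interferon-induced leucine zipper protein, had -0.52, -0.02, -1.24 and -0.16, a mean of -0.49 ± 0.55. Array 3 supplied most of that mean, and without it the fitted mean was -0.21.

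Bst2 encodes tetherin, a membrane protein that holds budding virus particles at the cell surface. Its log2 ratios were 0.04, -0.34, 0.03 and 0.12, with a mean of -0.04 ± 0.21. Of these, 3 of 4 values were above 0, and the mean lay 0.04 above the median of all genes (-0.08).

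Psmb9, a catalytic subunit of the immunoproteasome that cuts peptides for MHC class I, had log2 ratios of 1.06 and 0.77 with the transfected line in Cy5 and -1.42 and -1.58 with it in Cy3. The sign thus followed the dye orientation, with means of 0.91 in the first and -1.50 in the second. How many of all genes did the same was not counted. The mean over both, -0.29 ± 1.40, was smaller than its SD, and the orientations differed by 2.41 log2 units.

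Rsad2, which encodes the antiviral enzyme viperin, was the only one of the 9 genes with a mean above 0 (0.42 ± 0.99). Its probes differed. One probe had a value on 2 arrays only, 2.33 and 2.09, both with the transfected line in Cy5. The other had -0.30, 0.46, -0.93 and 0.32 on arrays 1 to 4, a mean of -0.11 ± 0.64. The gene values of 1.02, 1.27, -0.93 and 0.32 therefore mix both probes on arrays 1 and 2 and hold 1 probe on arrays 3 and 4.

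**Figure D2:**
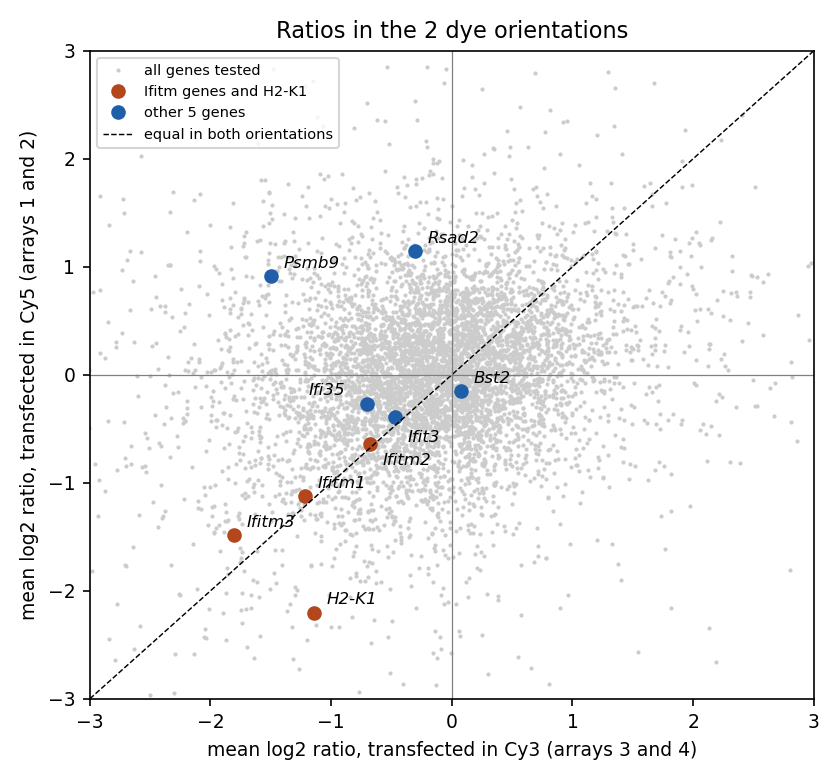
Mean log2 ratio of each gene with the transfected line in Cy5 (y axis, arrays 1 and 2) against that with it in Cy3 (x axis, arrays 3 and 4). Grey points are all genes tested (87 with a value beyond 3 either way are outside the axes), and the dashed line marks equal ratios. Ifitm1 (-1.13 and -1.22) and Ifitm2 (-0.64 and -0.68) lie close to that line, H2-K1 lies below it, and Psmb9 (0.91 and -1.50) lies far above it.

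In order of their means, the 9 genes ran from H2-K1 and Ifitm3 over Ifitm1, Ifitm2, Ifi35, Ifit3, Psmb9 and Bst2 to Rsad2. Only the steps between Ifitm3 and Ifitm1 and between Ifitm1 and Ifitm2 exceeded the SD of the difference over arrays. The neighbours from Ifitm2 onwards did not differ beyond their spread, as the step of 0.18 ± 0.79 between Ifitm2 and Ifi35 shows.

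The mean of Ifitm1, Ifitm2, Ifitm3 and H2-K1 was -1.24, -1.49, -1.32 and -1.10 on arrays 1 to 4, against 0.27, 0.23, -0.72 and -0.44 for the mean of the other 5 genes. The first group averaged -1.29 ± 0.16 and the second -0.17 ± 0.49 (SD, n = 4 arrays). The difference was below 0 on 4 of 4 arrays, at -1.50, -1.72, -0.60 and -0.67, with a mean of -1.12 ± 0.58. It was larger in size with the transfected line in Cy5 (-1.61) than with it in Cy3 (-0.63). Psmb9, Rsad2 and H2-K1 differed most between the orientations (Cy5 minus Cy3 2.41, 1.45 and -1.06), and their parts in this were not tested. Without Rsad2 the difference was -0.98 ± 0.49. The grouping was made with the ratios known and has no test.

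In the transfected line 6 of the 9 genes were below 0 on all 4 arrays, a pattern that 13% of all genes tested shared (821 of 6327). Their median was -0.49, against -0.08 for all genes. Of the 9 genes, 3 had a mean at or below -1, as had 7.7% of all genes. Since the genes were picked from this contrast, nothing can be read from these shares. Limma, fitted over all genes with a term for the dye orientation, called 0 of 6327 genes (0%) at an adjusted p under 0.05, and the smallest adjusted p was 0.105. None of the 9 genes was therefore called. Unadjusted p-values under 0.05 were found for 730 genes (11.5%), with 474 lower (7.49%) and 256 higher (4.05%).

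The rest of the pathway was described from gene lists put together with earlier results of these data known. Of 20 tested genes among other interferon-stimulated effectors, limma called 0 in either direction. At an unadjusted limma p under 0.05, 4 were lower and 1 (Ifitm10, listed by family name) was higher. These 5 genes became 3 without array 2 (Ifitm10, Lgals9 and Ly6e) and 3 with each probe on its own (Ifitm10, Ifitm6 and Nmi). The median of the list was -0.33, against -0.08 for all genes, and 5 genes were below 0 on every array. Ly6e, an interferon-induced surface protein anchored by a lipid, had log2 ratios of -3.08, -0.99, -2.33 and -2.19 (mean -2.15 ± 0.87, limma adjusted p = 0.294). It was the lowest gene of the list, and its 2 probes, with 3 arrays each, both averaged close to -2.3 (-2.30 and -2.32). Lgals9, which encodes galectin 9, had -0.72, -1.28, -1.68 and -1.93 (mean -1.40 ± 0.53, limma adjusted p = 0.303). Its 2 probes differed in sign on array 1 (-1.69 and 0.26), the only array they share, and 1 probe alone gave array 3 and the other arrays 2 and 4. Nmi, which binds Ifi35, averaged -1.42 ± 1.42 (limma adjusted p = 0.382), with its lowest value on array 3 (-3.42).

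Other Ifitm genes lay on both sides of 0. Ifitm6 had log2 ratios of -0.005 on array 1 and of -1.60, -1.22 and -1.51 on arrays 2 to 4 (mean -1.08 ± 0.74, limma adjusted p = 0.404). Ifitm10 had 0.95, 1.49, 2.01 and 2.08 (mean 1.63 ± 0.53, limma adjusted p = 0.274) and was the highest gene of the list. It is a divergent member of the family, listed by its name, and whether interferon induces it was not tested here. Its 2 probes averaged 0.72 ± 0.81 over 3 arrays and 2.22 ± 1.55 over 4 arrays. Among well-known antiviral effectors, Mx2, a dynamin-like GTPase, averaged 1.02 ± 1.89 through 1 high value on array 3 (3.75), and Oas1a, an RNA-sensing synthetase, averaged 0.01 ± 0.75. Uba7, the activating enzyme for the ubiquitin-like protein Isg15, averaged 0.38 ± 0.46. None of these 3 differed from 0 by more than its SD.

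Of 13 tested antigen presentation genes, 0 were called and 3 were lower at an unadjusted p under 0.05, with a list median of -0.15. With rows as deposited, and in rows 1 to 6000 alone, only H2-Q10 was left at that level. Other MHC class I genes were in part low, as H2-K1 was. Binding of H2-K1 or other class I transcripts to their probes was not tested either, so these ratios may not be separate measurements. H2-Q10, a secreted class I molecule, had log2 ratios of -1.93, -1.44, -0.09 and -0.97 (mean -1.11 ± 0.78, limma adjusted p = 0.381). Array 3 stood nearest to 0. H2-M3, which presents formylated peptides, had -0.24, -2.11, -1.65 and -1.02 (mean -1.26 ± 0.81, limma adjusted p = 0.388). The 2 probes of H2-T23 opposed each other, with means of -2.16 ± 1.07 and 2.36 ± 3.82 over 3 arrays each, so the gene mean of -0.04 describes neither.

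The partners of class I molecules did not share 1 direction. B2m, the light chain, averaged -0.40 ± 0.67. Tap1, a subunit of the peptide transporter, averaged 0.69 ± 1.83, and Psme1, a proteasome activator subunit, 0.61 ± 0.36. H2-Ke6, in the list for its place in the MHC region and not as a class I partner, had 0.51 ± 2.29. Calr, a chaperone of the endoplasmic reticulum that also loads class I molecules, was the lowest gene of the list, with -0.89, -2.65, -2.91 and -2.48 (mean -2.23 ± 0.92, limma adjusted p = 0.274). The immunoproteasome subunit Psmb10 had 0.65, -0.01, -1.06 and -0.19 (mean -0.15 ± 0.71). Psmb8 had 0.13 and 0.72 with the transfected line in Cy5, no value on array 3 and -1.48 on array 4. In all 3 immunoproteasome genes, the highest value thus came from an array with the transfected line in Cy5 and the lowest from one with it in Cy3. B2m, Tap1, H2-Ke6 and Calr had the same pattern, whereas Psme1 did not. The array medians of all genes leaned that way too, averaging 0.04 with the transfected line in Cy5 and -0.15 with it in Cy3. The share of all genes with this pattern was not counted, so nothing can be read from it about Psmb9, Psmb8 and Psmb10.

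Constitutive proteasome genes measured on all 4 arrays lay mostly above 0. Of 27 with a value, those lacking an array were not tested and all averaged below 0. They were Psme4 (-1.29), Psmd10 (-1.24), Psmd6 (-0.70), Psme3 (-0.64) and Psmb5 (-0.23). Of 22 tested, 18 had a mean above 0 and 10 were above 0 on every array, a pattern of 9.58% of all genes. Limma called 0, and 2 were higher at an unadjusted p under 0.05. Psma2 had 0.69, 0.83, 0.76 and 0.68 (mean 0.74 ± 0.07) and Psmc5 -0.02, 0.45, 1.22 and 1.38 (mean 0.76 ± 0.66), each with a limma adjusted p of 0.421. Psma5 had 0.73 ± 0.47. The lowest of the 22 tested were Psmc6 at -0.33 ± 0.34, Psmb6 at -0.23 ± 0.38 and Psmb4 at -0.19 ± 0.65, and their median was 0.36. The share of all genes with a mean above 0 was not counted.

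Of 18 tested ligand, receptor and signalling genes, 0 were called and 3 were lower at an unadjusted p under 0.05. Their median of 0.19 lay above that of all genes. It leaves out those of the 24 genes with a value that lacked an array. Among these, Irf9 had -2.03, -1.18 and -2.71 on arrays 1, 3 and 4. Irf1 (-0.725), Ifngr1 (-0.36) and Irf7 (-0.18) also averaged below 0, and Ticam1 (0.06) and Ptpn11 (0.89) above it. Ifnar2, a chain of the type I interferon receptor, had -0.63, -1.34, -0.88 and -0.69 (mean -0.89 ± 0.32, limma adjusted p = 0.395). Its 3 probes were all low on average, at -1.17 ± 0.25, -0.68 ± 0.39 and -0.79 ± 0.98. Tyk2, the kinase bound to the other chain of that receptor, averaged -1.54 ± 0.36 (limma adjusted p = 0.294), but its 2 probes ranged from -3.51 to -0.14 and lacked 1 array each. The transcription factor gene Irf8 averaged -2.46 ± 3.99 (limma adjusted p = 0.421), with values from -6.42 to 2.94. One of its probes supplied arrays 1 and 3 and the other arrays 2 and 4. Stat2 averaged 0.10 ± 0.38 and Socs1, a feedback inhibitor of JAK kinases, 0.37 ± 0.33. The phosphatase gene Ptpn1 was the highest, at 0.65 ± 0.13 (limma adjusted p = 0.461), followed by Myd88, a Toll-like receptor adaptor (0.50 ± 0.56), and the phosphatase gene Ptpn6 (0.40 ± 0.73).

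**Figure D3:**
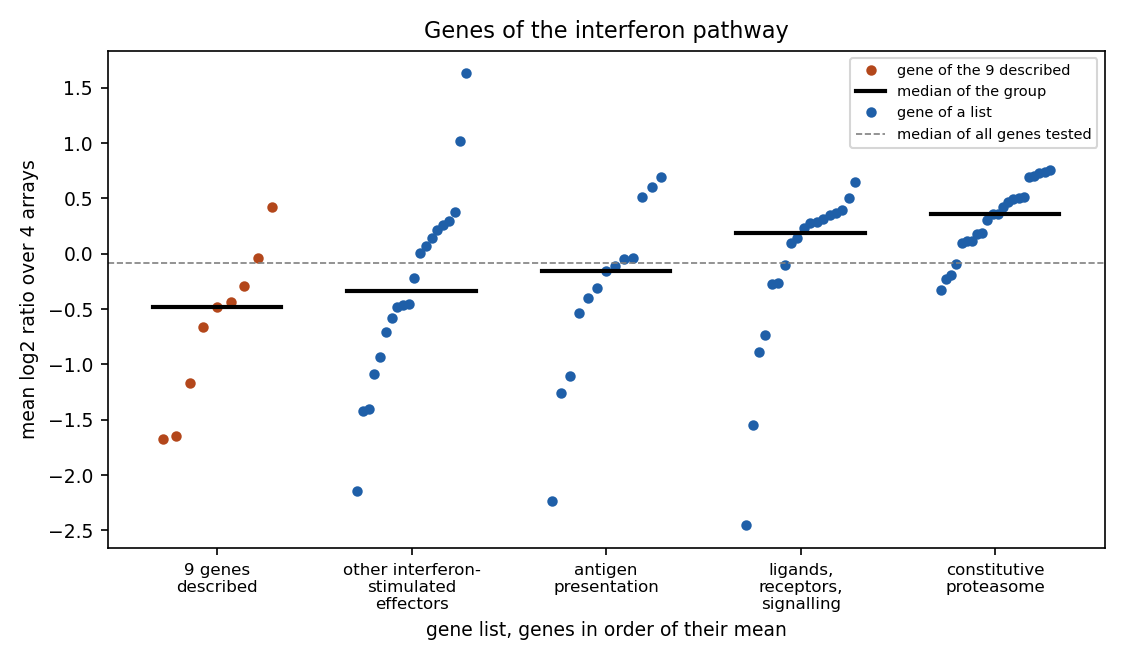
Mean log2 ratio over 4 arrays (y axis) of each gene, in order within the 9 genes described and within 4 lists of related genes. Black bars are medians, and the dashed line is the median of all genes tested (-0.08). The medians are -0.49 for the 9 genes, -0.33 for other interferon-stimulated effectors, -0.15 for antigen presentation, 0.19 for ligands, receptors and signalling and 0.36 for the constitutive proteasome.

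The genes whose 4 ratios lay nearest to the array means of Ifitm1, Ifitm2, Ifitm3 and H2-K1, by Euclidean distance over the 4 arrays, were Lmf2 (0.13), Alad (0.17), Tradd (0.27), Rbl2 (0.32) and Xpnpep1 (0.36). Lmf2 had log2 ratios of -1.14, -1.43, -1.26 and -1.10, a mean of -1.23. Tradd, an adaptor of the tumour necrosis factor receptor, averaged -1.23 ± 0.30, and Alad, an enzyme of haem synthesis, -1.22 ± 0.13. The likeness rests on 4 arrays of 1 pair of RNA samples.

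Markers of other cell types were sparse. Of 22 leukocyte markers 4 were tested, with means from -1.17 to 0.79 and a median of 0.01, and 1 was lower at an unadjusted p under 0.05, the lysozyme gene Lyz2 (-1.17 ± 0.70). Of 9 endothelial markers 5 were tested, with means from -1.03 to 0.45. Of 15 fibroblast markers 11 were tested, with a median of -0.36 and means from -4.91 for Col1a1 to 0.89 for Col3a1. At an unadjusted p under 0.05, 4 of them were lower and 0 higher, and 5 were below 0 on every array. The matrix genes Fn1 (-3.89, 14.8-fold lower) and Col1a2 (-3.36, 10.3-fold lower) were among the genes with the smallest limma adjusted p (0.105 each). The probes of Col1a2 differed, with means of -3.63, -4.53, -4.87 and -0.62. The last of these had -3.59 on array 1, which needs no move of rows. On arrays 2 to 4, read with the move, it had -0.12, 0.50 and 0.72. The probe at -4.87, also in the moved rows, had -5.20, -5.17, -4.59 and -4.54. Ifitm2 (row 19499) lies close to the differing probe (row 19482) and is read with the same move. Whether the move holds at each of these rows was not tested. The part of these markers in the ratios of the interferon-induced genes was not tested. In RNA of whole cultures, a lower level in every cell and a loss from some cells cannot be told apart.

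The processing mattered for the genes that lie in the moved rows. With the rows as deposited, Ifi35 had log2 ratios of -0.52, -0.07, 1.04 and 1.15 and a mean of 0.40, on the other side of 0. Ifitm2 had -0.37, 0.59, -0.41 and -0.55 and a mean of -0.18. For Ifitm3 arrays 2 to 4 had no value at the row as deposited, so that -1.37 on array 1 is the only value that does not rest on the move. Leaving out 1 array at a time left the fitted means of Ifitm3 between -1.76 and -1.53, of Ifitm1 between -1.25 and -1.10 and of H2-K1 between -1.81 and -1.54.

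**Figure D4:**
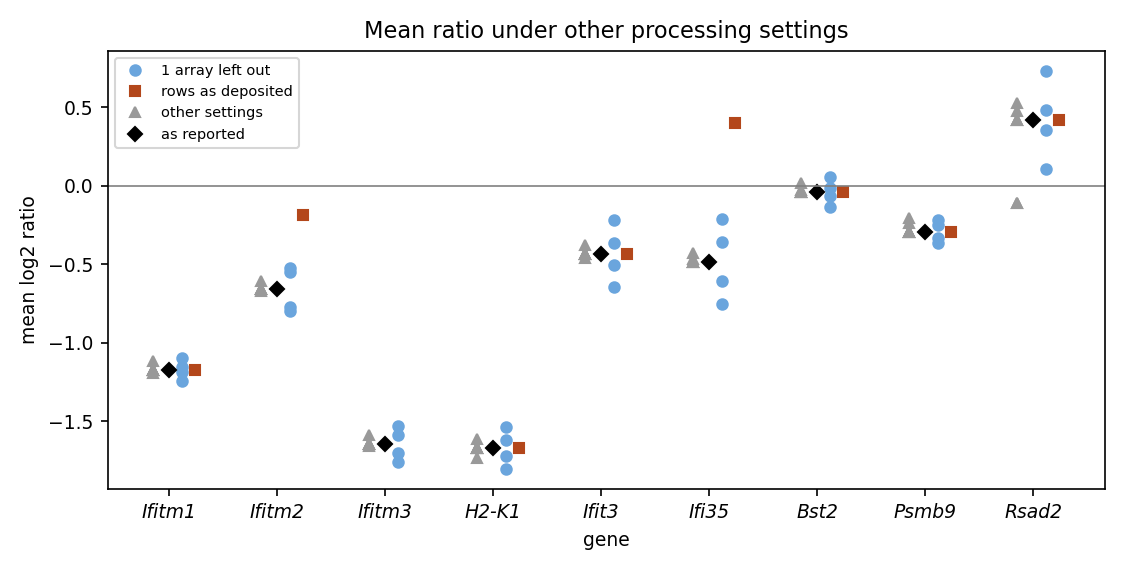
Mean log2 ratio of each of the 9 genes (y axis) as reported (black diamonds), with 1 array left out (blue circles), with rows as deposited (orange squares) and under other settings (grey triangles). Ifitm1, Ifitm3 and H2-K1 stay below -1 in every value shown, and Ifitm2 moves to -0.18 and Ifi35 to 0.40 with rows as deposited. The Rsad2 value of -0.11 is that of its probe with 4 arrays alone. Its other probe (mean 2.21) had values in 1 dye orientation only and is left out there.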

How the data were processed

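The authors deposited 1 value table of 4 two-colour cDNA arrays, 20355 rows with 1 log2 ratio per array. The sources used here do not give the image analysis, the background correction or the normalization. Scale, direction and the row offsets were inferred from the values. Values beyond 15 either way (63, 120, 121 and 114 on arrays 1 to 4) were dropped. Rows 1 to 6000 were read as they stand, probe rows between 8000 and 18000 with arrays 2 to 4 taken 3 rows higher, and those of the last stretch 4 rows higher; 2300 rows were left out. Of the probes, 14030 had 1 symbol, 5 several and 6320 none in the platform annotation (13994 matched RefSeq by gene ID).

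Probes of a gene were averaged per array, and 6327 genes with 4 values were tested against 0 with limma (3.58.1, R 4.3.3; lmFit, eBayes, dye term, Benjamini-Hochberg). The script was tested on simulated data. The number of arrays limits the precision, and channel intensities were not used here. Members and lists were chosen with earlier results of these data known. Named were the 9 genes, list genes at an unadjusted p under 0.05, the 3 highest and 3 lowest of each pathway list, class I and Ifitm genes, a few well-known pathway genes chosen after their values were seen, and the 5 genes nearest in pattern. Alternatives changed the dye term, centring, scaling, rows, probes, missing values, capped values, variance model and arrays.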

Additional observations from a re-analysis of the deposited data

Results flagged for a closer look

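Of 58 values checked over the 4 arrays (the 9 genes, the named genes of the lists and the group means), 1 had a single array far from the others. Pecam1, an endothelial marker, had log2 ratios of -1.34 on array 1 and of 0.52, 0.34 and 0.25 on arrays 2 to 4, with a gap over range of 0.856, past the critical value of Dixon's test. Chance flags about 1 in 20 such values, and many of these genes had been picked by their means. None of the 9 interferon-induced genes was past the critical value.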

How the results depend on the processing

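Limma called 0 genes as reported, 6 when the dye term was left out, 1 with arrays scaled to a common spread and 2 with only probes measured on all 4 arrays, a setting added after the data were seen. With each probe on its own it called 6 probes of 4 genes (Col1a1, Col1a2, Fn1 and Lox). None of these calls was one of the 9 genes, and 0 genes of the 4 related lists were called under any setting run. Of 104 alternative mean ratios of the 9 genes, 102 moved by less than 1 SD over arrays. Many of them could not have moved further. Settings for probes and for missing or capped values leave a gene with 1 probe and 4 kept values unchanged. Rows as deposited do the same for genes in the first 6000 rows. Leaving out 1 array shifts such a mean by less than 1 SD in any case. The count of 102 is therefore no measure of stability. Ifi35 turned to 0.402 and Ifitm2 moved to -0.184 with rows as deposited; both lie in rows where arrays 2 to 4 are read at an offset. Ifitm3 had no mean with rows as deposited, and Ifitm2, Ifitm3 and Ifi35 had none in rows 1 to 6000. The difference between the mean of the Ifitm genes with H2-K1 and that of the other 5 genes was taken under 10 alternatives. It ranged from -1.188 to -1.015 over them, and from -1.176 to -1.067 with 1 array left out. With rows as deposited and in rows 1 to 6000 it had no value, because Ifitm3 had no mean there. The range therefore does not cover the row move. At an unadjusted p under 0.05, all genes numbered 355 without array 2 and 276 in rows 1 to 6000 (730 as reported). At that level the effector list had 5 genes, but 3 without array 2, with each probe on its own or with only probes measured on all 4 arrays. The antigen presentation list had 3, but 1 (H2-Q10) with rows as deposited and in rows 1 to 6000. The signalling list had 3 genes, but 1 (Ifnar2) with each probe on its own, 1 (Tyk2) without array 1 and 0 with rows as deposited. The proteasome list had 2, but 0 without array 1 or array 2. The causes were not tested. No paired analysis was possible because the series has 1 group of arrays.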

Other observations

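Genes next to the Ifitm cluster and to H2-K1 were looked up in the RefSeq gene order after the values had been seen. Of the 10 nearest measured genes around Ifitm1, leaving out Ifitm2 and Ifitm3, 2 were below 0 on all 4 arrays, with a median of 0.07. Ifitm6 (-1.08) was the lowest and Rassf7 (1.25) the highest. Sigirr, an inhibitor of interleukin 1 and Toll-like receptor signalling, had 0.55, 0.22, 0.04 and 1.64 on arrays 1 to 4, above 0 throughout, and Sirt3, a mitochondrial deacetylase, had -0.41, -1.61, -2.17 and 0.35. Around H2-K1, 1 of 10 genes was below 0 on every array, with a median of -0.11. These ran from Rgl2 (-0.76) to Ring1 (0.96), and B3galt4, the gene below 0 throughout, averaged -0.55. None of these 20 genes had a mean as low as Ifitm1, Ifitm3 or H2-K1.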
